A study of Mus musculus with 6 samples.

Results

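The Obox genes encode homeodomain transcription factors, and the mouse oocyte stores the messenger RNA of several of these genes for the early embryo. This account covers Obox1, Obox2, Obox3, Obox5, Obox6, Obox7 and Obox8, found by matching the Ensembl identifiers of the count table to GENCODE M21 symbols. They are 7 of the 55487 genes in the table, and all 7 were found. RNA had been sequenced from 6 libraries of mouse oocytes, 3 labelled control and 3 labelled metformin. The mice received 10 IU of pregnant mare serum gonadotropin, germinal vesicle oocytes were collected after 46 to 48 h, and the cumulus cells were stripped off. The oocytes of both groups were then matured for 16 h in M16 medium to the second meiotic metaphase, without metformin in the control group and with it in the other. Metformin is a biguanide used against type 2 diabetes.

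The protocol lists metformin at 10, 20 and 50 µM, and which of these the sequenced oocytes received is not stated. The series title speaks of aged mice. Age, strain, the number of oocytes in a library and whether oocytes were pooled are not in the labels. Nothing says that the 3 libraries of a group came from separate animals or cultures, so the p-values below reflect how far these 6 libraries scatter, part of which may be technical.

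OBOX proteins belong to the paired-like class of homeodomain proteins, and their genes arose by tandem duplication from a relative of Crx. Obox1, Obox2, Obox5 and Obox7 are known as maternal genes, transcribed in the growing oocyte, whereas Obox3 is known as a gene of the early embryo. Maternal and embryonic OBOX proteins act redundantly in zygotic genome activation, the onset of transcription in the cleaving embryo, and Obox6 has been described as an aid to reprogramming of fibroblasts to pluripotency.

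All 7 genes lie on chromosome 7 in GENCODE M21 (build GRCm38) and are annotated as protein-coding. Obox8 (ENSMUSG00000099216) lies at chr7:14331436-14333557 on the minus strand, and Obox7 (ENSMUSG00000055942) at chr7:14659496-14665996 on the plus strand. Obox2 (ENSMUSG00000074369, chr7:15388721-15398545) and Obox1 (ENSMUSG00000054310, chr7:15388948-15556866) are on the plus strand and overlap. Obox3 (ENSMUSG00000066772) covers chr7:15479825-15639902 on the minus strand. Obox5 (ENSMUSG00000074366) covers chr7:15750131-15759800 on the plus strand, and Obox6 (ENSMUSG00000041583) covers chr7:15833241-15839678 on the minus strand.

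How alike the paralogues are decides which of their reads can be told apart, so their homeobox is shown first. The 60 bases below, read 5′ to 3′ from the coding sequences of GENCODE M21, encode the end of the homeodomain, with the recognition helix that lies in the major groove of DNA. Capitals mark bases that differ from Obox1.
Obox1: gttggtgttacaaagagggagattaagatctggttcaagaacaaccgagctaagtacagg
Obox2: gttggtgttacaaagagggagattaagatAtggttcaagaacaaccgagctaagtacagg
Obox3: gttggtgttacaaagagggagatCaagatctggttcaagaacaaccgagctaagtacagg
Obox5: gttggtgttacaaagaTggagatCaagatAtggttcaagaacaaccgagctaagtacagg
Obox7: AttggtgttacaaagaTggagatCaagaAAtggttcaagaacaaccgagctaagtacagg
Obox6: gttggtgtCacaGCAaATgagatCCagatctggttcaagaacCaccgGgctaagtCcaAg
Obox8: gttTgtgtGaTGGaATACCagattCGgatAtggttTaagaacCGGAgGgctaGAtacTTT
Obox2 and Obox3 each differed from Obox1 at 1 of these 60 bases, Obox5 at 3 and Obox7 at 5. Obox6 differed at 12 and Obox8 at 24, so these 2 genes stand apart from the other 5.

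Over whole coding sequences the order of likeness was similar. Obox1 and Obox2 were identical at 98.5% of their 453 aligned bases, with 7 substitutions, of which C420A (counted from the first coding base of Obox1) falls in the stretch printed above. Obox5 and Obox7 were identical at 96.0% of aligned bases, Obox1 and Obox5 at 95.6%, and Obox3 and Obox5 at 94.0%. Obox6 matched Obox1 at 78.6%, and Obox8 matched the other members at between 63.9% and 69.4%.

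The Obox2 annotation had a feature of its own. Its second coding exon held 199 bases, against 200 in Obox1, Obox3, Obox5 and Obox7, so its homeobox stretch starts at coding base 390 in place of 391. In the annotated frame of Obox2 the codons of the recognition helix were not found, whereas each of the other 6 members had them once in frame. The annotated coding sequence of Obox2 was also the shortest, at 453 bases against between 612 and 1041 for the other members. Read counts do not show which frame is translated.

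Several members carried shared sequence at their starts as well. Windows of 300 bases (250 before the RefSeq start and 50 after it) were taken from RefSeq on GRCm38.p6, which held entries for Obox1, Obox2, Obox3, Obox5 and Obox7. Those of Obox6 and Obox8 were not analysed here. The runs below are shown because several members have them in common. In the first 4, capitals mark TATATAA, a form of the TATA box, which positions the start of transcription. The last is the first 30 bases of the longest run that the windows of Obox1, Obox2, Obox5 and Obox7 share, of 44 bases, all of them in capitals.
Obox1 (chr7:15547227-15547256, plus strand): gtttgcagagaTATATAAgggcaggtcttc
Obox5 (chr7:15750328-15750357, plus strand): gtttgcagagaTATATAAgggcaggtcttc
Obox7 (chr7:14659692-14659721, plus strand): gtttgcagagaTATATAAgggcaggtcttc
Obox3 (chr7:15639789-15639818, minus strand): gtttggagagaTATATAAgggcaggtcttc
Obox2 (chr7:15388847-15388876, plus strand): TGGGTGAGAATTAAGGATTTGAATATTGCA
TATATAA was searched on both strands and was found in 3.24% of the 32851 promoter windows of the table. Counted from the RefSeq start, it began at -19 in Obox1, -30 in Obox3, -31 in Obox5 and -5 in Obox7. The window of Obox2 did not hold these letters. The 30-base run began at -101 in Obox1, -113 in Obox5 and -87 in Obox7, but at -4 in Obox2, whose window ends 50 bases after the start. In Obox1, Obox5 and Obox7, TATATAA lies further past the start of this run than the Obox2 window reaches. The Obox2 window therefore cannot show whether Obox2 has TATATAA at the matching place. Searched on both strands, it was found in 4 of the 32851 windows, those of the 4 members it was taken from. The homeodomain motif GGATTA was present in the window of Obox3 alone among the 5 (7.06% of all windows held it), and TAATTA in none of the 5 (5.29% of all windows). No matches of these motifs overlap. A match is a description of letters, not of a bound site.

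The members fell into an abundant and a scarce set. Their levels were ranked per length, as the deposited FPKM (fragments scaled to gene length and to library depth). Obox2 had the highest mean, 2222 ± 577 FPKM (SD over the 6 libraries of both groups). Obox5 followed with 1476 ± 360 FPKM, Obox1 with 1130 ± 192 FPKM and Obox7 with 483 ± 64.6 FPKM. By mean FPKM, Obox2 ranked 27, Obox5 38, Obox1 45 and Obox7 107 among the 55487 genes, so 4 members of 1 family were among the most abundant transcripts of these oocytes.

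The remaining members had few reads or none. Obox8 had 0.227 ± 0.307 FPKM and Obox3 0.182 ± 0.0556 FPKM over the same 6 libraries, and Obox6 was listed at 0 in each. The mean of Obox7 was 2126 times that of Obox8.

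Neighbours in this order did not all differ beyond their spread. Obox2 was above Obox5 in 5 of 6 libraries and Obox5 above Obox1 in 5 of 6, and in both pairs the ranges overlapped. Obox1 was above Obox7 in 6 of 6 libraries, with no overlap and a ratio of means of 2.34. Obox8 and Obox3 overlapped, and Obox8 was the higher in 2 of 6.

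Parts of this order depended on the gene length used. The deposited FPKM implies a length of 3607 bases for Obox1, whose exons in GENCODE M21 cover 1900 bases, and of 2453 bases for Obox5, whose exons cover 2136. Divided by the exon lengths of GENCODE M21, Obox1 had 2146 and Obox5 had 1695 counts scaled in the same way, which turns their order. Obox8 and Obox3 also changed places, at 0.227 for Obox8 and 0.454 for Obox3. Obox2 stayed first with 3388 and Obox7 came after Obox5 with 567. The implied lengths matched the exon union of GENCODE M21 to within 1 base for 538 of 4308 well-covered genes, so the deposited FPKM mostly rests on other lengths.

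**Figure D1:**
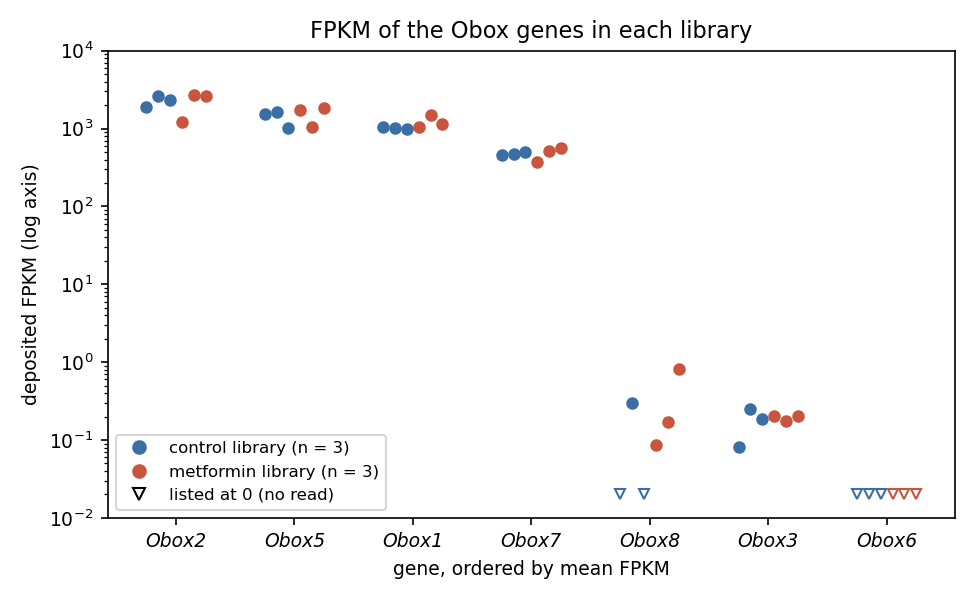
Deposited FPKM (log axis) of each Obox gene in each of the 6 libraries, 1 point a library, blue for control and red for metformin, with genes in order of their mean. Obox2, Obox5, Obox1 and Obox7 lie between 373 and 2735 FPKM, Obox8 and Obox3 lie below 1 FPKM, and open triangles mark libraries where a gene is listed at 0.

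In libraries of between 8622281 and 10588292 counts, the 7 members together took between 1.19% and 1.62% of all counts. Levels of 1 gene across libraries are given below as CPM, counts divided by library sizes that had been scaled with TMM (trimmed mean of M-values). The family total was 12832, 14788 and 13321 CPM in control 1 to 3 and 11188, 15773 and 17528 CPM in metformin 1 to 3. The control mean was 13647 ± 1018 CPM and the metformin mean 14830 ± 3273 CPM (SD, n = 3 each), a log2 ratio of means of 0.12. Without metformin 1 this ratio was 0.29, and without metformin 3 it was -0.02. The metformin libraries held both the lowest and the highest total, so the groups overlapped. In bulk RNA of this kind, fewer cells carrying a transcript and less RNA per cell cannot be told apart.

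Among the maternal members, Obox1 was the steadiest in the control libraries. It had 3714, 3617 and 3711 CPM in control 1 to 3 and 3570, 5419 and 4472 CPM in metformin 1 to 3. Metformin 2 and 3 were above all control libraries and metformin 1 was below them, so the groups overlapped. The group means were 3680 ± 55.0 and 4487 ± 924 CPM (SD, n = 3).

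Obox2 varied most among the abundant members. It had 4562, 6369 and 6019 CPM in control 1 to 3, against 2902, 6844 and 7023 CPM in metformin 1 to 3. Metformin 1 was the lowest of the 6 and metformin 2 and 3 the highest, on either side of the control range. The means were 5650 ± 958 and 5590 ± 2330 CPM (SD, n = 3), and the coefficient of variation over the 6 libraries was 28.4%, against 24.98% for Obox5, 18.0% for Obox1 and 18.0% for Obox7.

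Obox5 followed a different course over the libraries. It had 3706, 3934 and 2603 CPM in control 1 to 3 and 4055, 2539 and 4881 CPM in metformin 1 to 3. Control 3 and metformin 2 were low and the other 4 libraries high, with both groups represented on each side. The means were 3414 ± 712 and 3825 ± 1188 CPM (SD, n = 3).

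Over the 250 bases before the RefSeq start, Obox7 matched Obox5 at 97.3% of 224 aligned bases, with 52 positions in gaps. It matched Obox1 there at 94.1% of 236 aligned bases, with 28 positions in gaps. Obox7 had 850, 866 and 986 CPM in control 1 to 3. In metformin 1 to 3 it had 660, 969 and 1150 CPM. As for Obox2, metformin 1 was the lowest library and metformin 3 the highest. The means were 901 ± 74.3 and 926 ± 248 CPM (SD, n = 3).

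The make-up of the family therefore shifted from library to library. Obox2 held between 25.9% and 45.2% of the family's counts, Obox1 between 24.5% and 34.4%, Obox5 between 16.1% and 36.2%, and Obox7 between 5.85% and 7.40%. The ratio of Obox2 to Obox5 counts was 1.23, 1.62 and 2.31 in control 1 to 3 and 0.716, 2.70 and 1.44 in metformin 1 to 3. Metformin 1 had the lowest ratio and metformin 2 the highest. The spread of this ratio within a group was wider than the gap between groups, and the total varied less than any of its 4 abundant members, with a coefficient of variation of 15.9%.

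**Figure D2:**
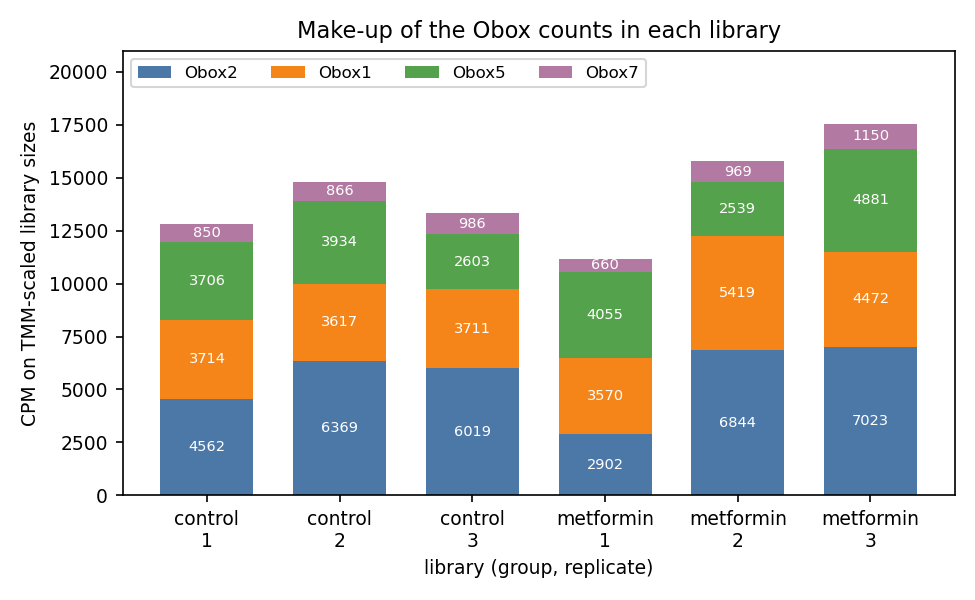
Stacked bars of the CPM of Obox2, Obox1, Obox5 and Obox7 in each library, with each value printed in its segment. The scarce Obox3, Obox6 and Obox8 are left out of the bars. With them, the family total runs from 11188 CPM in metformin 1 to 17528 CPM in metformin 3. The Obox2 segment is the smallest in metformin 1 (2902 CPM).

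Obox3, the member known from the embryo, had 6, 17 and 15 counts in control 1 to 3 and 16, 14 and 17 counts in metformin 1 to 3. Control 1 was the lowest and the other 5 libraries were within a few reads of each other. In CPM the means were 1.36 ± 0.663 and 1.54 ± 0.183 (SD, n = 3).

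Obox8 had 0, 3 and 0 counts in the control libraries and 1, 2 and 10 in the metformin libraries, so most of its reads came from metformin 3. Summed over the group and without TMM scaling, this was 0.107 CPM in control (exact Poisson 95% interval 0.0221 to 0.313) and 0.424 CPM in metformin (0.226 to 0.725). The intervals overlap and cover counting error only, not the spread between libraries. No read of Obox6 was counted among 58705294 counts, which allows a level of up to 0.0511 CPM over all libraries (3 counts).

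The contrast of metformin with control asked whether the drug altered stored transcripts during maturation in vitro. It was tested with edgeR's quasi-likelihood test on all genes, with Benjamini-Hochberg adjustment. Of the 7 members, 5 passed the filter on low counts, and Obox6 and Obox8 did not. None of the 5 passed an adjusted p of 0.05, where 5 of 12793 genes did (0.0391%). None had an unadjusted p under 0.05 (1.5% of all genes tested), and for none did the 2 groups fail to overlap (5.63% of all genes tested). DESeq2 and limma-voom also called 0 of the members. A count of 0 among 5 genes is near what these background shares would give for any 5 genes, and it does not show that the levels were equal.

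The intervals say how large a difference remained possible. Obox1 had the narrowest, at 0.29 for the log2 fold change of metformin over control (SE 0.164, 95% interval -0.07 to 0.65, unadjusted p = 0.109 and adjusted p = 1.00 by edgeR), or between 0.95-fold and 1.56-fold. Obox5 had a log2 fold change of 0.16 (SE 0.244), with an interval of -0.38 to 0.71. For Obox7 the log2 fold change was 0.04 (SE 0.187), between -0.37 and 0.45. For Obox2 it was -0.02 (SE 0.334), and its interval of -0.80 to 0.77 still holds changes from 0.573-fold to 1.71-fold. Obox3, with few reads, had 0.18 (SE 0.427) and an interval of -0.75 to 1.11. The unadjusted p by edgeR was 0.517 for Obox5, 0.833 for Obox7, 0.964 for Obox2 and 0.680 for Obox3, and each adjusted p was 1.00.

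Leaving out 1 library turned the sign of some of these values. Without metformin 1 the log2 fold change of Obox2 was 0.29, and that of Obox1 rose to 0.43 with an unadjusted p of 0.00865 (adjusted p = 1.00 by edgeR), where 440 of the 13148 genes tested without that library had an unadjusted p under 0.05. Without metformin 3, Obox5 had a log2 fold change of -0.05 and Obox7 of -0.15, and without control 1 Obox3 had -0.17.

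**Figure D3:**
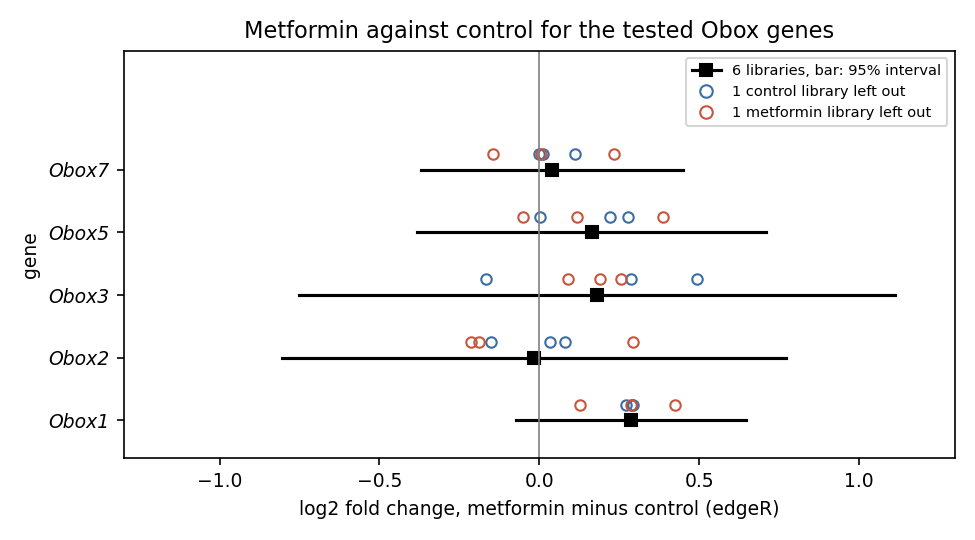
Log2 fold change of metformin over control for the 5 tested members from edgeR, with squares for all 6 libraries, bars for 95% intervals and open circles for fits with 1 library left out. Each bar crosses 0, and the circles of Obox2 run from -0.21 to 0.29.

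Near-identical copies limit what a count of 1 member means. Every run of 50, 100 or 150 bases in the annotated transcripts of GENCODE M21 was looked up in all other annotated genes. Of the 50-base runs of Obox1, 57.4% were also found in another gene, and of those of Obox2 65.1%, in both cases chiefly in each other. At 150 bases the shares were 34.1% and 38.2%. In addition, 59 exonic bases of Obox1 and Obox2 overlap on the same strand.

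The other members shared smaller parts of their runs. Obox5 shared 18.1% of its 50-base runs, mostly with Obox7, and 1.75% at 100 bases. Obox7 shared 21.1% at 50 bases, mostly with Obox5, and 2.34% at 100 bases. Obox3 shared 20.2% at 50 bases and 8.89% at 100 bases, mostly with the pseudogene Obox3-ps3. At 50 bases, 32 of its runs also occur in Obox1 and 32 in Obox2, which had far more counts. With between 6 and 17 counts a library, the level and fold change of Obox3 are therefore uncertain. Obox6 shared 5.02% at 50 bases and Obox8 none. The length of the reads and the treatment of reads with several matches were not given in the sources used here, so the split of counts between Obox1 and Obox2 is uncertain. If the reads were short, the counts of Obox5 and Obox7 would be less certain too, given the shares at 50 bases. Obox5 also shared 111 of its 50-base runs with Obox1 and 92 with Obox2.

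The sum of Obox1 and Obox2, added after the data were seen, is unaffected by how reads were divided between those 2 genes. It would still change if reads with several matches were dropped or counted more than once. It was 8276, 9986 and 9730 CPM in control 1 to 3 and 6472, 12263 and 11495 CPM in metformin 1 to 3. Metformin 1 was again the lowest and metformin 2 and 3 the highest. The log2 ratio of the group means was 0.11.

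**Figure D4:**
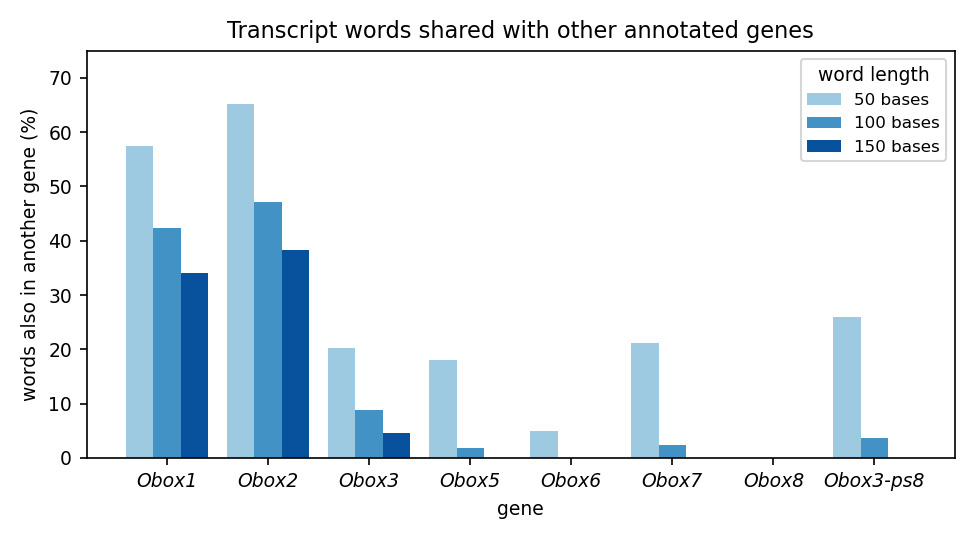
Share of the 50-, 100- and 150-base runs of each gene's annotated transcripts that also occur in another annotated gene, for the 7 members and the pseudogene Obox3-ps8. Obox1 and Obox2 share 34.1% and 38.2% of their runs even at 150 bases, and Obox8 shares none.

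A further 48 genes in the table have a symbol that begins with Obox, and 7 of them reached 10 counts in some library. All 7 are annotated as pseudogenes of Obox3. The one with the most counts, Obox3-ps8 (ENSMUSG00000044538), is a processed pseudogene at chr17:36452294-36453253 on the minus strand, away from the cluster on chromosome 7. It had 438, 425 and 508 counts in control 1 to 3 and 344, 535 and 526 in metformin 1 to 3. Per length it had between 36.1 and 54.8 FPKM, whereas Obox3 did not exceed 0.248 FPKM. In Obox3-ps8, 31 of the 861 runs of 100 bases occur in another gene, and 236 of the 911 runs of 50 bases. At 50 bases it shared 104 runs with Obox3, and also 67 with Obox5, 46 with Obox7, 20 with Obox1 and 20 with Obox2. Those last 4 genes had far more counts, and the length of the reads is not known, so the counts of Obox3-ps8 are uncertain. Its log2 fold change was -0.08 (SE 0.197, unadjusted p = 0.707 by edgeR, adjusted p = 1.00).

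The other 6 are unprocessed pseudogenes on chromosome 7. Obox3-ps5 had between 112 and 182 counts, Obox3-ps1 between 31 and 53, and Obox3-ps2 between 15 and 35. Obox3-ps4 had between 8 and 19 counts and Obox3-ps3 between 0 and 15. Obox3-ps6 was the only tested Obox gene whose groups did not overlap in CPM. Over all genes tested, 5.63% did not overlap and 1.5% had an unadjusted p under 0.05 by edgeR. The counts of Obox3-ps6 were 17, 20 and 18 in control 1 to 3 and 16, 6 and 7 in metformin 1 to 3. The raw counts of control 1 and metformin 1 were close, and the log2 fold change was -1.04 (SE 0.422, unadjusted p = 0.0300, adjusted p = 1.00 by edgeR, and unadjusted p = 0.1002 by DESeq2). Since 67.4% of the 100-base runs of Obox3-ps6 also occur in other genes, chiefly Obox3-ps5, its counts are uncertain.

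OBOX proteins share their task with other maternal regulators. Of a list of 25 maternal factors of zygotic genome activation, 21 were tested and 0 were called by edgeR, DESeq2 or limma-voom. None of them had an unadjusted p under 0.05 by edgeR, 11 fitted values were above 0 and 10 below, and the median log2 fold change was 0.00, beside 0.01 over all genes tested. Dppa3, a maternal factor that shields the egg genome from demethylation, was named for the highest mean CPM of the list, a scale not divided by length, with 7201 ± 827 CPM in control and 8646 ± 2350 CPM in metformin (SD, n = 3).

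In that list the smallest unadjusted p belonged to Trp53, which encodes a tumour suppressor and stood at -0.25 on the log2 scale (SE 0.151, unadjusted p = 0.119, adjusted p = 1.00 by edgeR). Its libraries did not overlap, at 50.9, 53.9 and 63.4 CPM in control 1 to 3 and 46.0, 47.2 and 47.9 CPM in metformin 1 to 3. Zar1, which stabilises stored messenger RNA, was the other factor without overlap and is named because of that, after its values were seen. These were 2 of 21 tested factors, beside 5.63% of all genes tested. It had 726 ± 25.5 CPM in control and 815 ± 24.7 CPM in metformin (SD, n = 3). The log2 fold change of Zar1 was 0.17 (SE 0.122, unadjusted p = 0.200 by edgeR). Usf1, an E-box factor, stood at 0.55 on the log2 scale (SE 0.401, unadjusted p = 0.196 by edgeR) at a level of a few CPM.

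Genes that are switched on at the onset of embryonic transcription formed the next list. Of 25 such genes, 12 were tested, 0 were called by edgeR, DESeq2 or limma-voom, and 0 had an unadjusted p under 0.05 by edgeR. The median log2 fold change was 0.02, with 7 fitted values above 0 and 5 below. Tcstv1, named by the same rule, had 187 ± 36.8 CPM in control and 192 ± 29.7 CPM in metformin (SD, n = 3). Tcstv3 stood at 0.22 on the log2 scale (SE 0.179, unadjusted p = 0.237 by edgeR) and Zscan4e of 0.51 (SE 0.455, unadjusted p = 0.282 by edgeR). All 3 belong to families of near-identical copies, so their counts are uncertain. Duxf3, the inducer of many such genes, had 1 read in all, in metformin 1.

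Other paired-like and oocyte homeobox genes made up the third list. Of 26, 9 were tested, 0 were called by edgeR, DESeq2 or limma-voom, and 0 had an unadjusted p under 0.05 by edgeR. The median log2 fold change was -0.06, with 4 fitted values above 0 and 5 below. Nobox, which drives oocyte genes in early follicles and was named by the same rule, had 81.0 ± 18.1 CPM in control and 81.2 ± 11.5 CPM in metformin (SD, n = 3). Pou2f1 stood at -0.22 on the log2 scale (SE 0.209, unadjusted p = 0.318 by edgeR), and Duxbl1 of -0.69 (SE 0.606, unadjusted p = 0.289 by edgeR). Crx, the relative from which the family is thought to derive, had 0 counts in all libraries.

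The genes whose level over the 6 libraries was most like that of Obox2 were 9330175E14Rik (Pearson's r of log2 CPM 0.997), Magea10 (0.989), Tox (0.985), Gm5798 (0.983) and Mosmo (0.982). They were picked for this likeness among 6656 genes with a mean of at least 10 CPM, of which 152 reached an r of 0.9, so the values describe 6 libraries and carry no test. All 5 had their lowest value in metformin 1, as Obox2 did, and the points share library depth and scaling.

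Oocyte markers, all 10 of them tested, summed to between 30744 and 33318 CPM in control and between 26598 and 37678 CPM in metformin. Most were abundant in every library, but Figla had only between 8 and 27 counts a library. Metformin 1, the library with the lowest Obox total, also had the lowest sum of oocyte markers. Markers of cumulus and granulosa cells summed to between 1358 and 1529 CPM in control and between 1159 and 1649 CPM in metformin. Nearly all of this was Serpine2. Cyp19a1 had between 318 and 489 counts, and 3 of the 12 genes, Ptx3, Amh and Foxl2, were at 0 throughout. The 6 stroma and endothelium markers summed to between 23.99 and 35.7 CPM over all libraries, mostly Pecam1. Col1a1 had 25 counts and Col1a2 had 20 in control 1, and at most 1 and 4 in any other library. Col3a1 did not follow this, with 3 counts in control 1 and 4 in control 3. Haemoglobin reads were found almost entirely in control 1, where blood and immune markers summed to 31.9 CPM, against between 1.27 and 2.58 CPM in the other libraries. The part of these markers in the Obox values was not tested.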

How the data were processed

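Per the labels, the libraries were made with a SMART-Seq HT kit from oocyte RNA. CASAVA 1.8, TopHat2 2.0.6 and the build mm10 are listed in the submitters' processing notes. The counting program, read length and handling of reads with several matches were not given in the sources used here. Per the file headers, the authors deposited counts of reads and FPKM for each gene and library. Symbols were matched for 55141 of 55487 identifiers.

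The members and lists were chosen with earlier results of these data known. Counts were tested with edgeR 4.0.16 in R 4.3.3 (robust quasi-likelihood fit, TMM, filterByExpr at a minimum of 10 counts, no term but the group, Benjamini-Hochberg threshold of 0.05). The SE is the log2 fold change divided by the root of F. CPM used total counts times the TMM factor. FPKM served only to compare genes, with no test. DESeq2 1.42.0, limma 3.58.1 (voom), other scalings and filters, a replicate block and leaving out each library were tried as alternatives. The scripts were tested on simulated data.

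A floor of 3 counts was between 0.283 and 0.348 CPM per library. Floors and Poisson intervals (95%) cover counting error only, since PCR copies are not independent molecules. Libraries of a group differed by more than sampling noise (chi-square per degree of freedom between 11.6 and 37.7), so none was treated as a library deposited more than once. This does not show separate animals or cultures. Coding sequences were aligned end to end (match 1, mismatch -1, gap opening -3, extension -0.5), with free ends for promoters. All 7 members were named, with, of each other list, the 2 tested genes of smallest p and the gene of highest mean CPM, the Obox-symbol genes with at least 10 counts in a library, and the 5 genes most correlated with the member of highest FPKM.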

Additional observations from a re-analysis of the deposited data

How the results depend on the processing

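No member was called under any scaling, filter, tool, fit or threshold tried, or with any 1 library left out. Over all genes, 5 were called by edgeR, 8 by DESeq2 and 4 by limma-voom, 6 without a filter on low counts, and between 5 and 12 with 1 library left out. The cause of these shifts was not tested. The log2 fold change with 1 library left out ran from 0.13 to 0.43 for Obox1, from -0.21 to 0.29 for Obox2, from -0.17 to 0.49 for Obox3, from -0.051 to 0.39 for Obox5 and from -0.15 to 0.23 for Obox7. The direction of Obox2 turned without control 2 (0.08), control 3 (0.03) or metformin 1 (0.29), and that of Obox7 without control 1 (-0.0017) or metformin 3 (-0.15). Obox3 turned without control 1 (-0.17) and Obox5 without metformin 3 (-0.051). Obox3 was not tested at a mean of at least 10 CPM. Under every other scaling, filter and tool the 5 directions were kept.

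Levels per length moved with the length used. From the exon union of GENCODE M21 they were 3388 for Obox2, 2146 for Obox1, 567 for Obox7 and 0.454 for Obox3, on the scale of counts over length and depth. From the longest transcript they were 3822 for Obox2, 2697 for Obox1, 1977 for Obox5, 615 for Obox7 and 0.634 for Obox3. As shares of summed FPKM in place of counts, Obox1 held 21.4%, Obox7 9.11% and Obox3 0.00345%. The log2 ratio of the family total, 0.12, ran from -0.02 (without metformin 3) to 0.29 (without metformin 1) with 1 library left out, and from 0.09 to 0.13 in the other alternatives. Of these, the sums of Obox1 and Obox2 (0.11) and of Obox1, Obox2 and Obox5 (0.13) were added after the data were seen.

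With the replicate number as a block, 7 genes and 0 members were called, and the log2 fold change was 0.27 for Obox1, -0.11 for Obox2, 0.23 for Obox3, 0.13 for Obox5 and 0.01 for Obox7. Deviations of same-numbered libraries correlated at 0.144, 0.0441 and 0.200, each library best with its own number, which is a hint from the data only. The libraries are taken to share no more than a number.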
